A study of Homo sapiens with 4 samples.

Results

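The 34 genes described here were the 19 autosomal WNT ligand genes and 15 genes of their receptors: 10 Frizzled receptors (FZD1 to FZD10), the co-receptors LRP5 and LRP6, and the receptors ROR1, ROR2 and RYK. They were chosen by name, out of 19222 autosomal protein-coding genes, and each was taken as a window of its gene body plus 50 kb either side (hg19, GENCODE release 44 mapped to that build). Of 58827 binding intervals deposited for the study, 145 overlapped these windows. The experiment introduced full-length SOX2, or only its DNA-binding domain (SOX2-DBD), into BJ fibroblasts, a human foreskin fibroblast line, for 48 h. Both proteins carried a V5 peptide tag. An antibody to the tag guided CUT&RUN, in which a nuclease tethered to the antibody releases the DNA under the protein for sequencing. The labels give 2 samples of SOX2 and 2 of SOX2-DBD, and the files used here belong to replicate 1 of each. The labels used here do not state the vector or promoter behind the introduced gene, and no cells without an introduced factor were analysed. The lists hold positions and signal but no expression, so neither the fibroblast identity nor the activity of any WNT gene could be checked.

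WNT ligands are secreted, lipid-modified proteins that bind Frizzled receptors on a neighbouring cell. With LRP5 or LRP6 in the complex, the signal protects β-catenin from destruction and lets it act with TCF/LEF proteins on DNA, while ROR1, ROR2 and RYK relay WNT signals, those of WNT5A among them, that do not need β-catenin. Fibroblasts are a common source of WNT ligands for neighbouring epithelium. SOX2 and the TCF/LEF proteins share one kind of DNA-binding domain, the HMG box, and recognise similar short sequences.

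An interval was classed as SOX2-only, as shared (the same row in the SOX2 and SOX2-DBD lists) or as SOX2-DBD-only, and the WNT windows held 102, 40 and 3 of these. Shared intervals carry 1 set of values, and the sample they were measured in is not stated. A fall in signal from SOX2 to SOX2-DBD cannot be read from them. Total signal is the authors' deposited value, in a unit that is not stated, and is used only to rank intervals within a list or class. Outside the WNT windows its autosomal minimum was 1184 for SOX2-only and also for shared intervals, and 2233 for SOX2-DBD-only ones. SOX2-DBD-only values are therefore set only beside others of their class. At 9 of the 40 shared intervals the listed region of maximum signal lay at least in part outside the interval. The total signal listed there may therefore cover more than the interval. Each group has a single list, so the spread between replicates is unknown for every value. Ranges in parentheses beside a density are exact Poisson 95% confidence intervals, and those beside a percentage are Wilson 95% ones. Only counting error enters them, and neither binding intervals nor genes are replicates.

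The sequences below show what lay under a few of the intervals, as the plus strand of hg19 at the centre of each interval. They are examples and do not represent all the genes described. Capitals mark the core sequence of SOX proteins (ACAAAG or ACAATG) and the AP-1 sequence (TGACTCA or TGAGTCA), on either strand. The first 3 were the shared intervals of highest total signal inside RYK, WNT2 and ROR2, all in introns. The RYK stretch held 1 SOX core match and the WNT2 stretch 2 with 1 AP-1 match, while the ROR2 stretch held none.
RYK, chr3:133887901-133888200: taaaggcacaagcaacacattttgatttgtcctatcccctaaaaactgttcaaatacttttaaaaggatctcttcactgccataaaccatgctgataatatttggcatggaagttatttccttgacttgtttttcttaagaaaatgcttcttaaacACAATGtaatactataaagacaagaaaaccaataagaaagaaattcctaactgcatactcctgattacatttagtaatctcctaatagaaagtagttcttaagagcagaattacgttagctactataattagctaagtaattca
WNT2, chr7:116923549-116923848: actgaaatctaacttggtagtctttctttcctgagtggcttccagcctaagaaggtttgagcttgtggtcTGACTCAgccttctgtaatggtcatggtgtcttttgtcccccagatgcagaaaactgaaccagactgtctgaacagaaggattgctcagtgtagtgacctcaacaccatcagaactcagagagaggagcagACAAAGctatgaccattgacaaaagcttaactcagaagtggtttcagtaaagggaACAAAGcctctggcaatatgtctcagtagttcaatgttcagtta
ROR2, chr9:94514296-94514595: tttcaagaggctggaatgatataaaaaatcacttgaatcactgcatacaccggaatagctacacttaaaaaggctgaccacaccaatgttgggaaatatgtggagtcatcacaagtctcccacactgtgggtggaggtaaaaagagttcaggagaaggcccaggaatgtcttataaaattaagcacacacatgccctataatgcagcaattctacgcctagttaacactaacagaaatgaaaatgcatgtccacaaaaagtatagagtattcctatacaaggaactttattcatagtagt
The next 2 were SOX2-only. The LRP6 interval was the only interval within 1 kb of an annotated start of any of the 34 genes, and its 300 bases held 4 SOX core matches. That start belongs to a transcript not annotated as protein-coding. The WNT2B interval had the highest total signal of the 102 SOX2-only intervals and held neither sequence in the stretch shown.
LRP6, chr12:12398031-12398330: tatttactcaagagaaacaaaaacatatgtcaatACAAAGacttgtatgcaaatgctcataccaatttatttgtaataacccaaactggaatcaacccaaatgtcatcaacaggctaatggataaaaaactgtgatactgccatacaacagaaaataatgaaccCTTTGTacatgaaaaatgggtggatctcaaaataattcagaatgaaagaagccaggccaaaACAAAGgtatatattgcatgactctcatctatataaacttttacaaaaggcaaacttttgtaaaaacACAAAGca
WNT2B, chr1:113011032-113011331: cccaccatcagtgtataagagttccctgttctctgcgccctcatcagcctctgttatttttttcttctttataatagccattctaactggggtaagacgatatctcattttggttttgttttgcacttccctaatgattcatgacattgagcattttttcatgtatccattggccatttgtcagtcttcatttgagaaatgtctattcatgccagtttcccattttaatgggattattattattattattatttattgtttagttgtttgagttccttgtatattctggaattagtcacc
The last was the highest-signal shared interval inside LRP6, printed whole because it is only 24 bp long and is all that the list reports for a total signal of 4982.
LRP6, chr12:12344381-12344404: tggagaacttatgaactctgcctt

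Among the 34 genes, 26 had at least 1 SOX2 interval in their window (76.5%, 60 to 87.6), against 71.3% of autosomal protein-coding genes. At least 1 SOX2-DBD interval lay in 13 windows (38.2%, 23.9 to 55), against 40.7% of those genes. Both shares were near the background. The median window was 126 kb for the 34 genes and 128 kb for all coding genes. In the SOX2 list, 13 of 19 ligands and 13 of 15 receptors had an interval, and in the SOX2-DBD list 4 ligands and 9 receptors did. WNT3A, WNT7A, WNT8A, WNT9A, WNT9B, WNT11, FZD8 and FZD10 had none in either list. A SOX2-only interval with a total signal of 1229 lay just beyond the edge of the WNT11 window, and the outermost interval counted, at FZD6 (1312), overlapped the edge with its centre at 50.1 kb.

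Few genes held most of the intervals. LRP6 and ROR1 had 21 each, ROR2 16, RYK 13 and FZD6 12, which together made up 57.2% of the 145 intervals in 31.9% of the window length. Per Mb of window, SOX2 intervals were densest at FZD6 (89.3), LRP6 (83.7) and WNT2B (67.2).

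**Figure D1:**
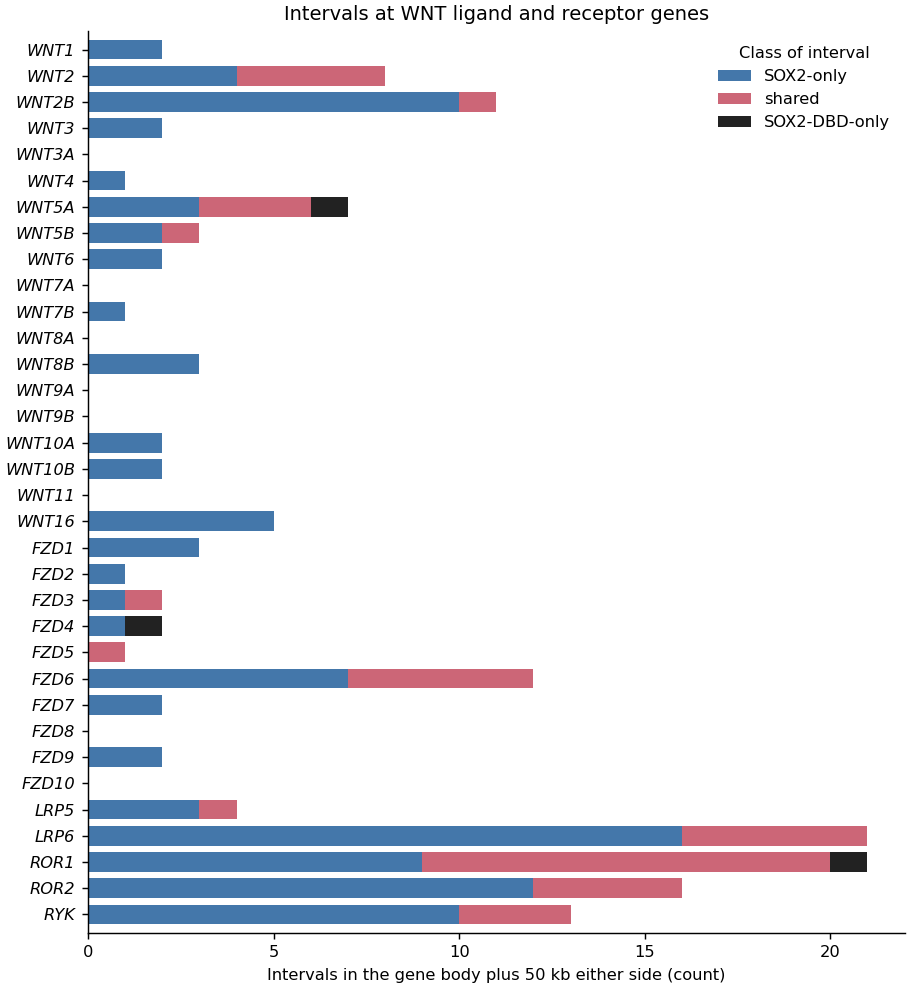
Number of intervals in the gene body plus 50 kb either side (x axis) for each of the 34 genes (y axis), stacked by class. LRP6 and ROR1 reached 21 intervals, shared intervals were most numerous at ROR1 (11), and 8 genes had none.

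Across all windows, which merged into 30 stretches of 5.22 Mb, the SOX2 list had 27.2 intervals per Mb (22.9 to 32.1), against 19.9 in other autosomal sequence. Windows of other coding genes, drawn the same way, had 25.3 per Mb, which lay inside the interval of the WNT windows. The SOX2-DBD list had 8.24 per Mb (5.96 to 11.1), against 5.24 in other autosomal sequence and 6.36 in windows of other coding genes. Gene bodies held 31.2 SOX2 intervals per Mb (24.2 to 39.7), against 28.5 for other coding genes. Their flanks held 24.4 (19.2 to 30.6), and those of other coding genes 18.1, but the flanks were not drawn alike. The flanks of the WNT genes kept the bodies of neighbouring genes, where 36 intervals of either list lay. For the other coding genes, the bodies of all of them were removed. Bodies made up 41.1% of the WNT windows and 70% of the others, so the flank densities are not compared.

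Taken as a whole, receptor windows were denser than ligand windows, and 5 of the receptors held most of the receptor intervals. Ligand windows had 44 SOX2 intervals in 2.29 Mb, or 19.2 per Mb (13.9 to 25.7), and receptor windows 98 in 2.92 Mb, or 33.5 per Mb (27.2 to 40.8). Windows of other coding genes, at 25.3 per Mb, lay between the 2. The receptor density was 1.75 times the ligand density (exact 95% interval 1.21 to 2.55). With each receptor left out in turn, a check added after the data were seen, the ratio ran from 1.5 without LRP6 to 1.82 without LRP5 or FZD3. FZD6, LRP6, ROR1, ROR2 and RYK, the 5 receptors with the most intervals, held 82 of the 98 in 1.67 Mb. The other 10 receptors held 16 in 1.26 Mb, or 12.7 per Mb (7.27 to 20.6), which is 0.663 times the ligand density (exact interval 0.349 to 1.2). Because the 5 were picked for their counts and no ligand was left out in return, a lower ratio was built into this split. It cannot show that the difference rests on those 5 genes. Taken gene by gene, the median density was 13.8 per Mb for ligands and 19.1 for receptors. In the SOX2-DBD list ligands had 4.36 per Mb (2.09 to 8.02) and receptors 11.3 (7.77 to 15.8). Within the receptors, the Frizzled windows had 20.8 SOX2 intervals per Mb (13.3 to 30.9), and 11.7 (6.07 to 20.5) without FZD6, which alone held 12 of the 24. FZD6 was left out for its count, so a fall was built in here too. The LRP5 and LRP6 windows together had 51.3 (33.2 to 75.7), made up of 83.7 (51.8 to 128) at LRP6 and 16.9 (4.6 to 43.3) at LRP5. The ROR1, ROR2 and RYK windows had 38.3 (28.3 to 50.6), and each of these 3 genes was above 30 per Mb.

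**Figure D2:**
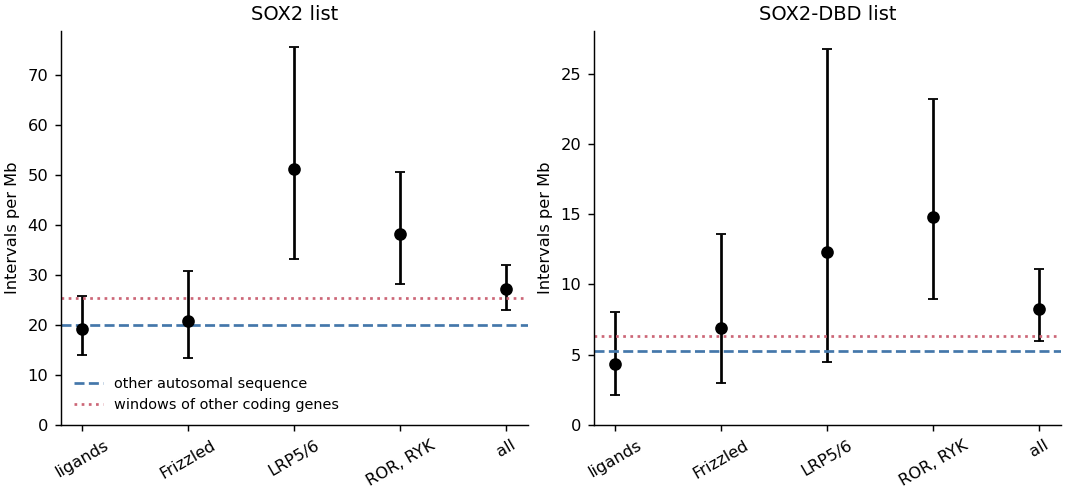
Intervals per Mb of window (y axis) in the SOX2 list (left) and the SOX2-DBD list (right) for ligands, Frizzled receptors, LRP5 and LRP6, ROR1, ROR2 and RYK, and all 34 genes; points are densities and bars exact Poisson 95% intervals. In the SOX2 list, ligands (19.2) and Frizzled receptors (20.8) lay near the dashed line of other autosomal sequence (19.9), and ROR1, ROR2 and RYK (38.3) above it. The dotted line of windows of other coding genes stood at 25.3, above the ligand and Frizzled points but inside their bars. The LRP point (51.3) joins LRP6 at 83.7 with LRP5 at 16.9.

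Base composition moved with these densities. Over the 34 genes, the GC content of the window and the number of SOX2 intervals per Mb had a Spearman correlation of -0.62, given as a description, since several windows overlap and all come from 1 list. The 8 genes with no interval had a median GC content of 49.8% (43.7% to 54.4%) and the 26 others 44.3% (37.6% to 57.8%), so the ranges overlapped. The median was 49.1% for ligands and 44% for receptors, and 41% of all autosomal bases were G or C. Its part in the difference between receptors and ligands was not tested.

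**Figure D3:**
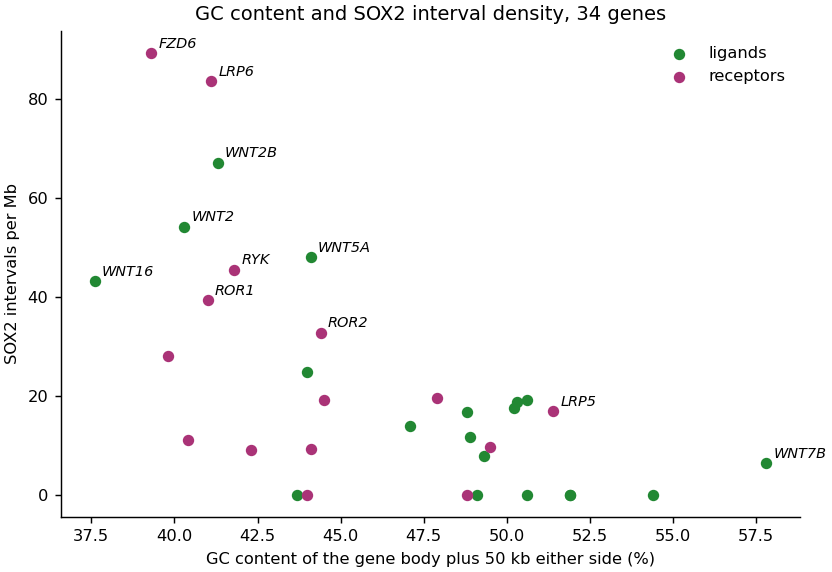
SOX2 intervals per Mb (y axis) against the GC content of the gene body plus 50 kb either side in percent (x axis), 1 point for each of the 34 genes, coloured by ligand or receptor. FZD6, LRP6 and WNT2B stand highest at GC contents of 39.3%, 41.1% and 41.3%, and WNT7B, at 57.8%, had 1 interval.

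Of the ligands, WNT2B, a paralog of WNT2, had the most intervals, 10 SOX2-only and 1 shared. The highest total signal among SOX2-only intervals of all members, 11116, lay at chr1:113010421-113011943, an interval of 1523 bp in a WNT2B intron, 1.13 kb from the nearest WNT2B transcript start. That put it at the 99.9 percentile of the SOX2 list. The next highest of its intervals, chr1:113105912-113106950 (5145), lay in the neighbouring gene ST7L, as did 3 others downstream of WNT2B. The single shared interval, with a total signal of 3121, lay 8.4 kb upstream of WNT2B, inside CTTNBP2NL.

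WNT5A, the best known ligand of ROR2, had 3 SOX2-only, 3 shared and 1 SOX2-DBD-only interval in a window of 125 kb. Its shared interval at chr3:55501263-55501753 had a listed total signal of 7870 and lay in the untranslated region of the gene, 2.66 kb from a transcript start. The region of maximum signal lay at least in part outside that interval, so 7870 may not belong to it alone. The 2 other shared intervals had 1593 (an intron) and 3724 (22.2 kb upstream, inside ERC2). The 3 SOX2-only intervals had 2622, 2810 and 3175. The SOX2-DBD-only interval, chr3:55553235-55553588, lay 28.8 kb upstream inside ERC2 with 2286. That is near the low end of its class, which elsewhere on autosomes had a minimum of 2233 and a median of 4215. The interval held a SOX core match and had no down-sampled SOX2 interval over it.

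WNT2, a ligand made by mesenchyme of the developing lung, had 4 SOX2-only and 4 shared intervals. The shared ones came as 2 neighbouring pairs, at 38.8 and 39.5 kb from the gene start in an intron (1962 and 3872), and at 53.1 and 53.5 kb, downstream of the gene (1246 and 2107). All 3 SOX2-only intervals upstream of WNT2 lay inside CFTR, and 0 of its 4 SOX2-only intervals were in the down-sampled list. WNT5B, the paralog of WNT5A, had 2 SOX2-only intervals (1431 and 1688) in its introns and 1 shared interval (1858), 12.8 kb upstream. WNT5A had 48.1 SOX2 intervals per Mb and WNT5B 13.8, a ratio of 3.48 whose exact interval (0.744 to 21.5) includes no difference.

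The remaining ligands with intervals had only SOX2-only ones. WNT16, a ligand studied in bone, had 5, all upstream of the gene, with total signals from 1740 to 5138, and 4 of them lay inside the neighbour CPED1. WNT8B had 3 of similar signal, 4625 upstream, 4693 in an intron and 4401 downstream inside HIF1AN. WNT3 had 2, WNT4 1 and WNT7B 1, none in the gene body. WNT1 and WNT10B are neighbours and shared the same 2 intervals, as did WNT6 and WNT10A, and none of these 4 lay in a body of the 4 genes.

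Frizzled receptors are membrane proteins that bind WNT directly. FZD6 had 7 SOX2-only and 5 shared intervals in 134 kb, with 10 of the 12 outside its gene body. Their total signals ran from 1184 to 4622, and the shared ones from 1784 to 2847. Its paralog FZD3 had 1 of each class, 1397 in an intron and 1710 downstream. The FZD6 density was 8.04 times that of FZD3 (exact interval 1.79 to 73.9), a pair compared after the values were seen.

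Most other Frizzled genes are short and had few intervals. FZD4 had 1 SOX2-only interval 6.5 kb upstream (1509), which held a SOX core, an AP-1 and a TCF/LEF match, and 1 SOX2-DBD-only interval at chr11:86627160-86627701 (2998), in PRSS23. FZD5 had a single shared interval 35 kb upstream with a total signal of 1237, near the low end of the list at its 2.8 percentile. FZD1 had 3 SOX2-only intervals, all with a SOX core match. FZD7 had 2, 1 of them in its untranslated region, FZD9 2 and FZD2 1.

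LRP5 and LRP6 are close paralogs and serve the same co-receptor role, but their windows differed. LRP6 (chr12:12268959-12419978) had 16 SOX2-only and 5 shared intervals, 15 of the 21 in its gene body. LRP5 (chr11:68080059-68216743), with a gene of 137 kb against 151 kb, had 3 SOX2-only and 1 shared interval, and 0 in its gene body. All 4 LRP5 intervals lay 157.5 to 183 kb from its start, inside the neighbour PPP6R3. The LRP6 density was 4.95 times that of LRP5 (exact interval 1.67 to 19.8), again a pair compared after the values were seen. GC content was 51.4% for the LRP5 window and 41.1% for that of LRP6, and its part in the difference was not tested.

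Total signals at LRP6 ran from 1377 to 5072 with a median of 1881. The interval closest to an LRP6 start, chr12:12398002-12398360, had a total signal of 1776 and lay in an intron, 21.8 kb from the start of the gene. The start 0.94 kb from it is that of a shorter transcript, not annotated as protein-coding. The 5 shared intervals had 1651, 1881, 2164, 2879 and 4982. The last is the 24-bp interval printed above, the only one under 50 bp among the 40 shared intervals. A model of BCL2L14 overlaps the far end of LRP6, so 9 of the intervals in LRP6 introns lie in that gene too.

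ROR1 and ROR2 are receptor tyrosine kinase family members that bind WNT5A. ROR1 (chr1:64239688-64647181) had 9 SOX2-only, 11 shared and 1 SOX2-DBD-only interval, and 55% of its SOX2 intervals were shared (34.2 to 74.2), against 24.8% in other autosomal sequence. ROR1 is singled out here after its values were seen. Of the 11 shared intervals 8 lay in introns, 1 was upstream and 2 were downstream. Total signals of the shared intervals ran from 1374 to 6399 with a median of 2646, and those of the SOX2-only intervals from 1360 to 2366 with a median of 1940. The sample behind the shared values is not stated, so these medians are not compared, here or below. A shared interval of 5635 lay downstream in UBE2U. The SOX2-DBD-only interval, chr1:64471835-64472874, lay in an intron and held no SOX core or AP-1 match at its centre. Its total signal was 4407, against a median of 4215 for SOX2-DBD-only intervals elsewhere on autosomes.

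ROR2 (chr9:94325373-94712510) had 12 SOX2-only and 4 shared intervals, a shared share of 25% (10.2 to 49.5). The highest total signal among shared intervals, 8863, was listed for both chr9:94321740-94321960 and chr9:94322320-94323050. They lie 3.5 and 2.7 kb beyond its annotated end, carry the same maximum region and are therefore 1 measurement listed for 2 pieces. Both pieces are counted in all counts and shares given here, which raises those of ROR2. Of all autosomal shared intervals, 5.71% had the values of another shared interval. The 2 shared intervals inside ROR2 had 2111 and 1767. ROR1 had 39.4 SOX2 intervals per Mb and ROR2 32.8, a ratio of 1.2 (exact interval 0.591 to 2.48).

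RYK, a receptor with an inactive kinase domain, had 10 SOX2-only and 3 shared intervals, 10 of the 13 in its gene body. Shared total signals were 1374, 3478 and 4546, and all 3 held a SOX core match at the centre. The SOX2-only ones ran from 1218 to 4170.

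**Figure D4:**
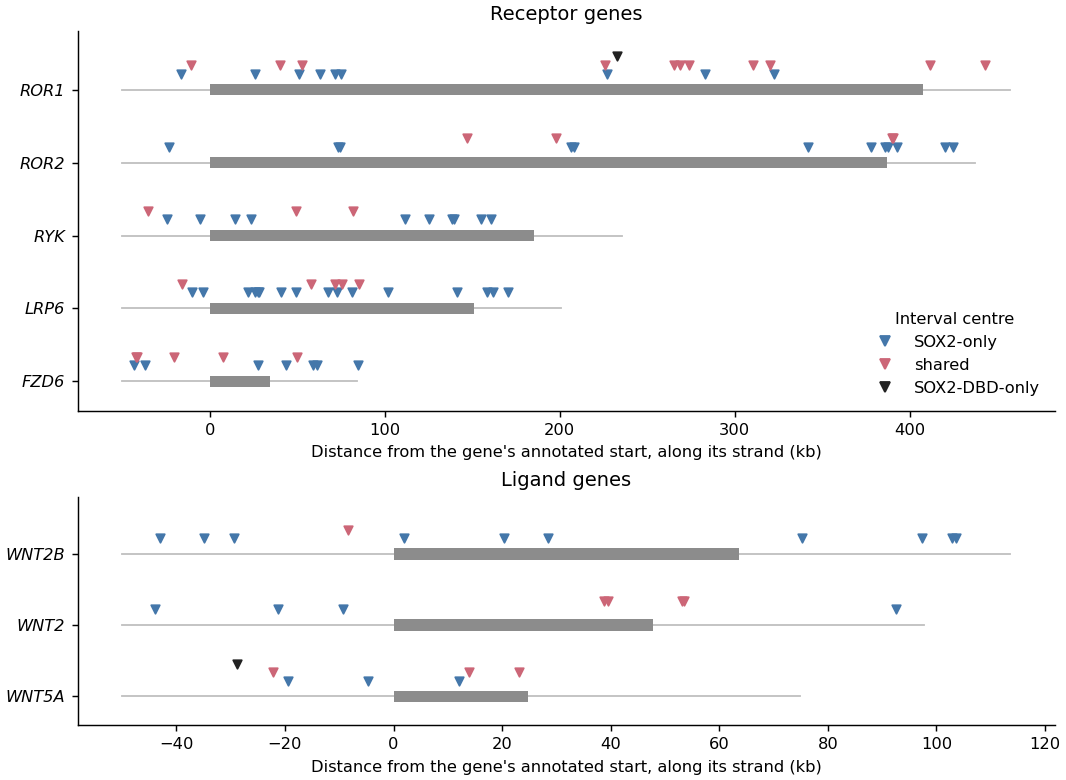
Interval centres (triangles, coloured and raised by class) along 5 receptor genes (top) and 3 ligand genes (bottom), by distance in kb from the annotated start along the gene's strand; thick bars are gene bodies and thin lines the 50 kb flanks. ROR1 has 11 shared intervals, 8 in the gene and 3 in its flanks, 15 of 21 LRP6 intervals lie in the gene, and 10 of 12 FZD6 intervals lie outside it.

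By position, 64 of the 145 intervals had their centre in an intron of a member, 2 in an untranslated region, 40 upstream and 39 downstream, and 36 lay outside a member in another coding gene. Of the SOX2 intervals, 4 of 142 (2.82%, 1.1 to 7.02) had their centre within 1 kb of any annotated start. The share was 6.8% in other autosomal sequence and 7.9% in windows of other coding genes. None of the 43 SOX2-DBD intervals did (upper limit 8.2%), against 8.16% in other autosomal sequence and 9.66% in windows of other coding genes. With starts of protein-coding transcripts alone the SOX2 count was 0, against 1.85% in other autosomal sequence. Introns of any gene held 70.4% of SOX2 centres (62.5 to 77.3), against 64.2% in other autosomal sequence and 71.6% in windows of other coding genes.

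Shared intervals made up 28.2% (21.4 to 36.1) of SOX2 intervals, against 24.8% elsewhere, and 23.8% (17.1 to 32.1) without ROR1. The share was 20.5% (11.2 to 34.5) at ligands and 31.6% (23.3 to 41.4) at receptors. SOX2-only intervals had a median total signal of 2201 and a median width of 500 bp, and shared ones 2268 and 338 bp, against 2285, 559 bp, 2750 and 373 bp elsewhere on autosomes. A down-sampled SOX2 interval overlapped 64.1% of the SOX2 intervals (55.9 to 71.5), against 64.3%. The seventh column of the SOX2 list, present only for shared intervals and with no stated meaning, was 1 or more at 18 of the 40 (45%, 30.7 to 60.2), against 34.4%. Those 18 lay at ROR1 (6), ROR2 (3), WNT5A (2), WNT2 (2) and, with 1 each, RYK, LRP6, FZD3, FZD5 and FZD6.

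Motifs were counted on both strands in the 200 bp at each centre. A SOX core, ACAAAG or ACAATG, occurred at 52.1% (43.9 to 60.2) of SOX2 centres in WNT windows, against 47.3% of other autosomal SOX2 centres. Windows of the same size 10 kb downstream held it in 28.2% and 27.7%. The share at receptor centres was 59.2% (49.3 to 68.4) and at ligand centres 36.4% (23.8 to 51.1), and 10 kb downstream it was 32.7% and 18.2%. At ROR1, singled out after its values were seen, 9 of 11 shared and 4 of 9 SOX2-only centres held one, as did 9 of 20 windows 10 kb downstream. Without ROR1 the order was the other way, with 13 of 29 shared centres (44.8%, 28.4 to 62.5) and 48 of 93 SOX2-only centres (51.6%, 41.6 to 61.5).

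An AP-1 sequence, TGACTCA or TGAGTCA, occurred at 12% (7.61 to 18.3) of SOX2 centres in WNT windows, against 9.11% elsewhere. At shared centres the share was 20% (10.5 to 34.8), against 16.9% elsewhere, and at SOX2-only centres 8.82% (4.71 to 15.9), against 6.55%. ROR1, ROR2 and FZD6 had 3 such centres each, FZD3 and LRP6 2 each, and FZD4, RYK, WNT2 and WNT16 1 each. The TCF/LEF sequence CTTTGAT, which begins like CTTTGT, the reverse complement of the first SOX core, occurred at 12 of 142 centres (8.45%, 4.9 to 14.2), against 5% elsewhere and 4.93% 10 kb downstream. Of the 12, 4 also held a SOX core, and they lay at LRP6 (4), ROR1 (3), WNT2B (2), FZD4, FZD6 and RYK.

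**Figure D5:**
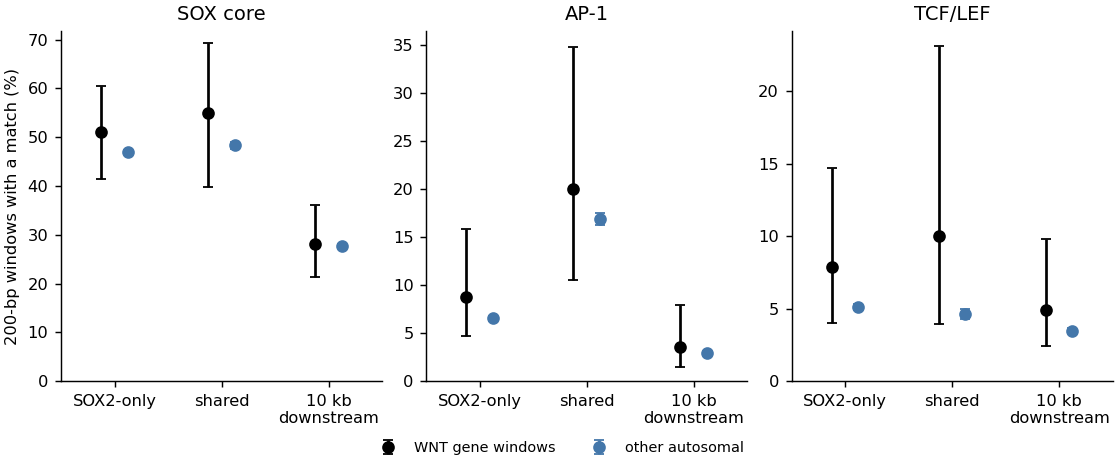
Percentage of 200-bp windows with a SOX core, AP-1 or TCF/LEF sequence (y axis of each panel) at SOX2-only centres, at shared centres and 10 kb downstream of SOX2 centres; black is WNT gene windows, blue other autosomal sequence, and bars are Wilson 95% intervals. The SOX core was at 51% of SOX2-only and 55% of shared WNT centres and in 28.2% of windows downstream, and each black interval at a centre spans the blue value.

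A list of 72 other WNT pathway genes held 68 autosomal ones. Of the 68, 57 had a SOX2 interval and 36 a SOX2-DBD interval, or 83.8% and 52.9%, against 71.3% and 40.7% of autosomal protein-coding genes. These shares were not matched for window length, and most of the 68 windows were longer than the 128 kb median of all coding genes. Over all coding genes, the SOX2 share rose from 52.8% for windows of 100 to 110 kb to 90.1% for 180 kb or more. The SOX2-DBD share rose from 22.8% to 67.7%. They had 27.8 SOX2 intervals per Mb (25 to 30.9), against 25.3 in windows of other coding genes, with 29% shared (24.5 to 33.9). The cytoplasmic relay, which includes β-catenin and the proteins that mark it for destruction, had 37.6 per Mb (31.1 to 45.1), unevenly spread over its 17 genes. GSK3B had 25 SOX2 intervals, TNKS 20, APC and CSNK1G1 14 each, CSNK1A1 13 and CTNNB1 12, while AXIN1 and GSK3A had 1 each and AXIN2, DVL1, DVL2 and NKD2 none. Nuclear effectors had 25.3 per Mb (19.2 to 32.8) and a shared share of 44.8% (32.7 to 57.5). In that group the co-repressor TLE4 had 24 intervals, 16 of them shared. Secreted inhibitors had 24.3 per Mb (18.4 to 31.4), and DKK1, which blocks LRP5 and LRP6, had 10 in a window of 104 kb, 5 of them shared. R-spondins and their receptors had 23.2 per Mb (16.8 to 31.3) and planar polarity genes 22 (16 to 29.6). Ligand processing genes and co-receptors had 29.7 (20.7 to 41.4). Of these, MUSK had 12 intervals, WLS, which carries WNT ligands to the cell surface, 11 and RECK 8.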

How the data were processed

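The data were CUT&RUN interval lists from BJ fibroblasts expressing V5-tagged SOX2 or SOX2-DBD, 2 samples a group by their labels, with lists of replicate 1 used here. The submitters' processing notes name Bowtie2 2.3.4.1, SAMtools, bedtools 2.27.1, SEACR 1.3, deepTools 3.5.0 and build hg19, with no role or order. Thresholds, sequencing depth and any pooling of replicates are not given in the sources used here. Total and maximum signal are the authors' deposited values, with no stated normalization. The seventh column, a score of whole numbers with no stated meaning, was deposited for shared rows of the SOX2 list. The down-sampled list was deposited with interval widths and no signal. Columns of per-sample values left unused numbered 0.

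Exact duplicate rows were counted once. An interval belonged to a gene if at least 1 bp overlapped its body plus 50 kb either side, and densities are per Mb of merged windows on autosomes, with undetermined bases included in the main value. Sequences and starts came from the GRCh37 assembly and GENCODE release 44 mapped to it. Repeated sequence is the share of an interval's 31-base words with another copy in the assembly. Python 3.11.15, pandas 2.3.3, SciPy 1.17.1, pysam 0.24.0 and numba 0.67.0 were used. The overlap counts were tested on simulated intervals.

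There is 1 list a group, so no p-value was computed. All 34 genes were accounted for. Described in full were those with a shared or SOX2-DBD-only interval, the 3 with the most intervals and the 3 densest, and by interval the 3 of highest total signal for ligands and for receptors, those within 1 kb of a start and those only in the SOX2-DBD list. The genes, the pathway list and this rule were chosen with earlier results of these data known. Alternatives changed the flank, the overlap rule, merging within 500 bp, duplicates, the list, the signal threshold, the reference sequence, the start definition, the motif and the member with the widest window. Intervals on chromosomes outside the autosomes, and 4 pathway genes there, were left out. An item that the rule selects is not reported here.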

Additional observations from a re-analysis of the deposited data

How the results depend on the processing

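No paired analysis was possible because only replicate 1 of SOX2 and of SOX2-DBD has a list here, and for that reason no replicate could be left out. Of 52 changes of setting, 9 moved a ratio or share beyond its counting interval or a count of genes by over 1.5 times. The number of genes with a SOX2 interval, 26 of 34 in the main setting, was 32 with 100 kb either side, 13 with no flank, 15 with 10 kb either side and 16 in the upper 50% of the SOX2 list by total signal, settings that by construction cover more or less sequence or fewer intervals. The density ratio of 1.37 to other autosomal sequence was 1.07 against windows of other coding genes. It was 1.17 (0.897 to 1.51) in the upper 50% of the list, where the interval includes no difference. The share of centres within 1 kb of a start, 2.82%, was 1.08% in the down-sampled list, 0% with protein-coding transcripts alone and 24.6% within 5 kb, where other autosomal sequence had 28.4%. The SOX core share of 52.1% was 28.2% in 100-bp windows and 9.86% with a longer SOX motif, against 26.8% and 12.2% in other autosomal sequence. The ratio of receptor to ligand density, varied after the data were seen, was 1.75 and stayed within its interval with each receptor left out alone. It was 0.663 without FZD6, LRP6, ROR1, ROR2 and RYK together, a fall fixed in part by leaving out the receptors with the most intervals and no ligand. The Frizzled density of 20.8 per Mb was 11.7 without FZD6, a fall built in by leaving out the Frizzled gene with the most intervals. Sequencing depth is unknown and there is no second list, so how far these counts would vary between experiments cannot be given.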

Other observations

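WNT5A and the 3 receptors that can bind it without LRP5 or LRP6, ROR1, ROR2 and RYK, were looked at together after their values had been seen, and the count is a description only. Their windows held 21 of the 40 shared intervals and 34 of the 102 SOX2-only intervals in 26.9% of the window length. The shared share of SOX2 intervals was 38.2% (26.5 to 51.4) at these 4 genes and 21.8% (14.5 to 31.6) at the other 30. Without ROR1 it was 28.6% (16.3 to 45.1) at WNT5A, ROR2 and RYK.

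The share of SOX2 intervals made up mostly of exactly repeated 31-base words differed from that elsewhere by less than the counting error. Diverged copies of a repeat do not enter this measure. Of 141 SOX2 intervals measured in WNT windows, 3 had at least 50% of their 31-base words repeated (2.13%, 0.726 to 6.07), against 1.41% in other autosomal sequence. The highest-signal WNT2B interval had 13.9% repeated.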
